A study of Mus musculus with 2 samples.

Results

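Gfi1 and Gfi1b, a pair of zinc finger repressor genes of early blood cells, were read out on every probeset in the deposited table that the array annotation used here assigns to one of them and to no other gene. These were 24 of the 1048575 probesets in the table, 17 for Gfi1 and 7 for Gfi1b, and 270105 probesets in all have a single gene. No probeset named either gene together with another gene. The cells came from the Bry-GFP mouse embryonic stem line, in which GFP reports on Brachyury, a gene of mesoderm. FLK1+ cells were isolated from embryoid bodies of day 3 and put in culture with DMSO, the solvent, or with the LSD1 inhibitor compound B at 300 nM, and the CD41 fraction of each culture was sorted on day 2. Total RNA of each sort went on 1 Affymetrix array, so each group is 1 array of 1 stem cell line, and there is no replicate and no test between conditions. Every difference is inhibitor minus control in log2, it describes these arrays, and an SD beside it is the spread over probesets of 1 gene.

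Gfi1 and Gfi1b bind DNA through a block of zinc fingers at the C terminus and repress through a short SNAG domain at the N terminus. The SNAG domain docks onto LSD1, the histone demethylase encoded by Kdm1a, which works with the scaffold CoREST and histone deacetylases. Both genes are known for shutting down the endothelial programme while hemogenic endothelium, the endothelium that forms blood, turns into blood cells. Gfi1 is also needed in neutrophils and blood stem cells, and Gfi1b in red cells and megakaryocytes. Both proteins recognise sites with the core AATC and are known to bind control regions of Gfi1 and Gfi1b themselves.

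The sequence in front of the starts of Gfi1 and Gfi1b is shown, with capitals for the AATC core, which reads GATT where it lies on the other strand. Whether these letters bear on the differences below was not tested. The sequences are from RefSeq, build GRCm38.p6, minus strand, and each is the 250 bases before the annotated start. Gfi1b lies on chromosome 2 (chr2:28621983-28622232) and the outer start of Gfi1 on chromosome 5 (chr5:107725806-107726055).
Gfi1b: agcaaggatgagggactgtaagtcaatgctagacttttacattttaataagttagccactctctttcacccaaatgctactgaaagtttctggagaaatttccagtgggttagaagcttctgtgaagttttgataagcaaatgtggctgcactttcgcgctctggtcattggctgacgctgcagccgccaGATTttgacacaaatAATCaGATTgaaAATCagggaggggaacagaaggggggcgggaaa
Gfi1: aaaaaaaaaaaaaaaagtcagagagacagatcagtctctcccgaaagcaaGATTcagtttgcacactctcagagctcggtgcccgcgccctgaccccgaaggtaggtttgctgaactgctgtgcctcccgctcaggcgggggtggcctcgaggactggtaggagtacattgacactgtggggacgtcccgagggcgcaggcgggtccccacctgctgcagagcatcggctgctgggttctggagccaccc

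The Gfi1b window held 4 AATC cores, at positions -60, -45, -40 and -33 from the start. Of 32851 promoter windows of this length, 69.0% held at least 1 core and 7.04% held at least 4. G and C made up 44.4% of the Gfi1b window and 59.2% of the outer Gfi1 window, against a median of 52.4%. The shares of windows given here are not matched for this, and the motifs were chosen after the promoters were seen. Of the 4 cores, 2 were part of the longer letters AAATC, and 8.32% of windows held as many. The Gfi1b window also held GATAA, the letters read by GATA factors, at -119 (22.6% of windows hold it) and CCAAT, the letters read by NF-Y, at -83 (33.8% of windows). The outer Gfi1 window held 1 AATC core, at -200, and none of the 3 other motifs. RefSeq gives Gfi1 an inner start as well, and its window held none of these 4 motifs. GGAAG, the letters of many ETS sites (64.1% of windows), was found once, at -108 of the inner Gfi1 start, and TGTGGT, the letters of a RUNX site (14.0% of windows), in none of the 3 windows. All motifs were searched on both strands, and a match is a description of letters and not of binding.

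Most probesets of marker genes of hemogenic endothelium had values above the median of the table in both arrays. All 13 probesets of Cdh5, which encodes VE-cadherin, and all 16 of Runx1, the transcription factor that this endothelium needs to form blood, lay above the median of the table, 3.17, in both arrays. Of 31 probesets of Itga2b, which encodes CD41, 29 lay above it in control cells and 27 with the inhibitor. Of 31 probesets of Kdr, which encodes FLK1, 30 lay above it in both arrays, and of 23 of the receptor gene Kit, 22 did. For the endothelial genes Pecam1 and Tek the counts were 17 and 18 of 19 and 26 and 27 of 27. A probeset is called bright below if the higher of its values reached that median. Of the 270105 probesets with a single gene, 208583 were bright, so the counts above do not by themselves identify the cells. Genes with 4 or more bright probesets count as measured, and the gene difference is the median over these. For Kit it was -0.66, with 2 of 22 bright probesets higher. Some markers of other cell types had higher median control values, such as Hba-x (12.46) and Acta2 (11.06), against 8.44 for Runx1 and 7.89 for Cdh5. The size rule asks for a gene difference of 1 or more either way (2-fold) that 75% or more of the bright probesets share in direction. Of the 15087 measured genes, 259 (1.72%) passed it upward and 85 (0.563%) downward.

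Gfi1 was higher in the inhibitor array on all 17 of its probesets, of which 16 were bright. Its median control value was 4.87 and its median inhibitor value 7.30, a gene difference of 2.43 (5.39-fold, SD 1.09 over 16 probesets). Of the 16 bright probesets, 14 were at least 2-fold higher, which 8.69% of all 208583 bright probesets with 1 gene were. At least 4-fold was reached by 10 of the 16, against 1.33% of all, and at least 8-fold by 5, against 0.194%. Each of these counts holds probeset 4510138, which is bright through its inhibitor value alone. With both values at or above the median of the table, 13 of 15 Gfi1 probesets were at least 2-fold higher. No share of all probesets was computed under that stricter filter, so this count has no background beside it. By the size of the gene difference Gfi1 was number 13 of 15087 measured genes.

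**Figure D1:**
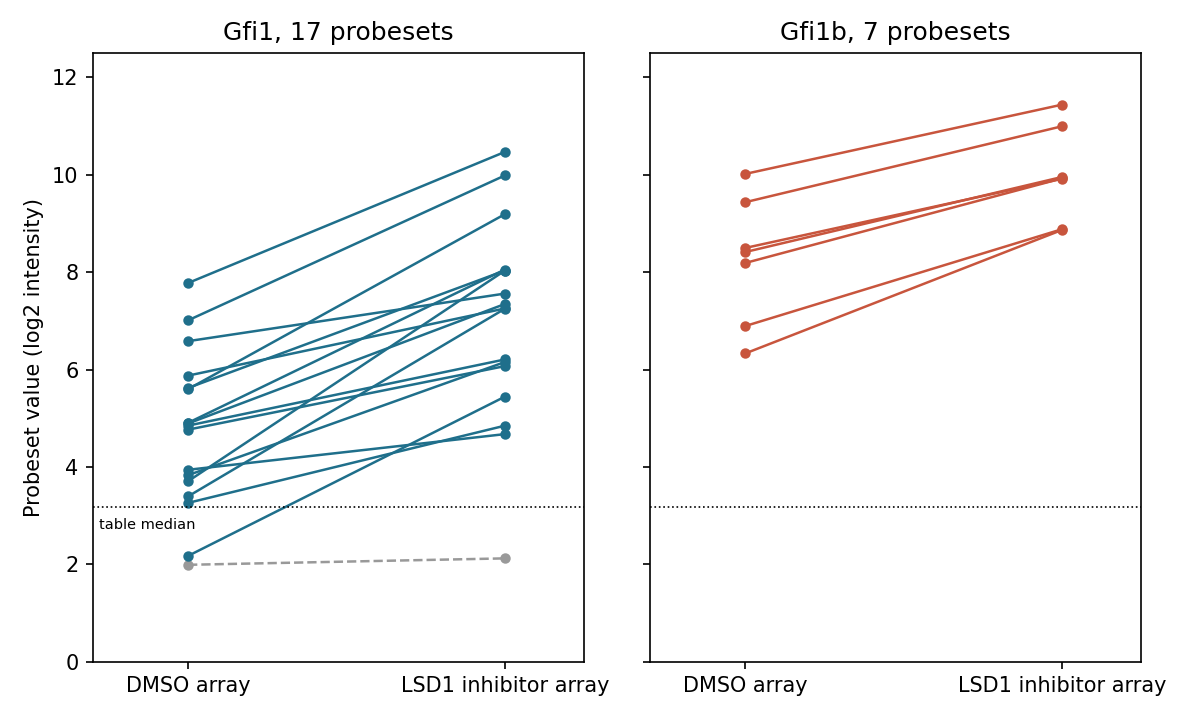
Value of each probeset (log2 intensity) in the DMSO array and the LSD1 inhibitor array, 1 line per probeset, for Gfi1 and Gfi1b. The dotted line is the median of the table (3.17), and the dashed grey line is the dim Gfi1 probeset. All lines go up, those of Gfi1b by 1.42 to 2.54 and those of the bright Gfi1 probesets by 0.73 to 4.32.

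Single Gfi1 probesets spread widely around that median, and the widest pair of differences was on probesets with low values in control cells. Probeset 5343308 read 3.71 in control cells and 8.03 with the inhibitor, a difference of 4.32 (20.0-fold). Probeset 5317230 read 3.40 and 7.25, a difference of 3.85. Probeset 4533154 read 5.60 and 9.19, a difference of 3.59. The first of these went from percentile 59.2 of all probesets of its array to percentile 95.2, and the second started at percentile 53.8. Both control values are near the median of the table, 3.17, and with no detection call the sizes of these differences are uncertain. Probeset 4510138 was the only bright Gfi1 probeset below the median of the table in the control array, where it read 2.18. It read 5.44 with the inhibitor, so its difference of 3.27 starts from a dim value, and it went from percentile 28.7 to 81.1.

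The brightest Gfi1 probesets were higher as well. Probeset 4333128 read 7.78 in control cells and 10.47 with the inhibitor, a difference of 2.69, and probeset 5049570 read 7.01 and 9.99, a difference of 2.97. These were the only Gfi1 probesets past percentile 90 of the control array, at 94.6 and 91.6, and 10 of the 16 were past it in the inhibitor array. Probeset 4835135 read 4.91 and 8.05 (difference 3.15), probeset 5194479 read 4.89 and 7.35 (2.45), and probeset 4788324 read 5.62 and 8.03 (2.41). Probeset 4974152 read 3.83 and 6.16 (2.32), which closes the group of 10 that were at least 4-fold higher.

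The other 6 bright Gfi1 probesets are called the lower group here, from 0.73 to 1.58, with no probeset between 1.58 and 2.32. This split was drawn after the values were seen, and whether the groups are distinct was not tested. Probeset 5253464 read 3.26 and 4.85 (difference 1.58), probeset 5247518 read 5.88 and 7.26 (1.38), and probeset 5131587 read 4.85 and 6.21 (1.36). Probeset 5324426 read 4.77 and 6.07 (1.30). These 4 passed 2-fold, and the last pair of the group did not. Probeset 4846329 read 6.58 and 7.56 (difference 0.98) and probeset 5133839 read 3.94 and 4.68 (0.73). The single dim probeset, 4725142, read 1.99 and 2.13, a difference of 0.13, at percentiles 24.5 and 27.7 of the arrays. The annotation used here does not say which exon a probeset lies in, so the lower and upper groups were not placed along the transcript.

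Gfi1b was higher in the inhibitor array on 7 of 7 probesets, all bright in both arrays. The control values ran from 6.33 to 10.02 with a median of 8.41, and the inhibitor values from 8.87 to 11.44 with a median of 9.93. The gene difference was 1.56 (2.95-fold, SD 0.40), number 74 of 15087 measured genes. All 7 differences passed 2-fold, and 1 passed 4-fold. Of 11427 genes with at least 7 bright probesets, 344 (3.01%) had all of them higher, and 11 (0.0963%), Gfi1b among them, had all of them at least 2-fold higher. Of 4297 genes with at least 16 bright probesets, 40 (0.931%), Gfi1 among them, had all of them higher. The cutoffs of 7 and 16 are the numbers of bright probesets of Gfi1b and Gfi1. Genes with more probesets had to pass on more of them, so these shares are not matched to the members. Over all bright probesets with 1 gene, 54.7% were higher.

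The Gfi1b probesets lay close together, and the brighter ones differed least. Probeset 5385687 read 10.02 in control cells and 11.44 with the inhibitor (difference 1.42), and probeset 4657602 read 9.44 and 11.00 (1.56). Probeset 4477130 read 8.50 and 9.92 (1.42), probeset 5079326 read 8.41 and 9.95 (1.54), and probeset 5192210 read 8.19 and 9.93 (1.74). These 5 lay within 1.42 and 1.74. The dimmest pair in control cells differed most: probeset 5144461 read 6.89 and 8.88 (1.99), and probeset 5261922 read 6.33 and 8.87 (2.54, 5.80-fold). Across the 7 probesets the difference and the control value correlated at r = -0.88. Across the 16 bright Gfi1 probesets r was -0.17. Against the mean of the control and inhibitor values r was -0.83 for Gfi1b and 0.19 for Gfi1. All of these are descriptions, since the control value enters both axes and probesets of 1 gene share their RNA and their arrays.

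**Figure D2:**
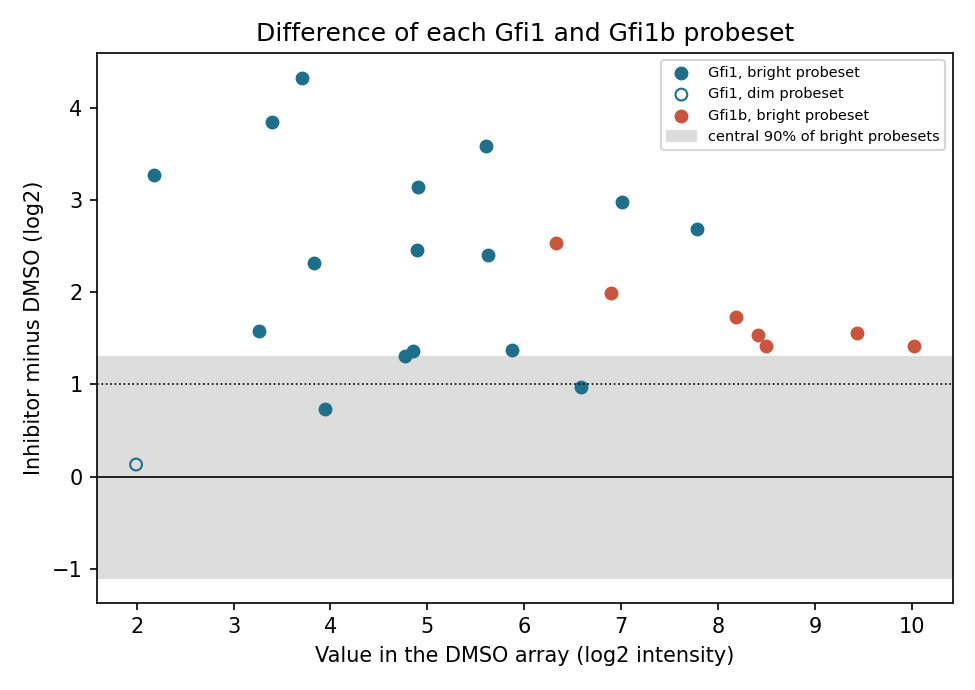
Difference of each probeset (inhibitor minus DMSO, log2) against its value in the DMSO array (log2 intensity). The grey band is the central 90% of all bright probesets with 1 gene, from -1.09 to 1.30, and the dotted line marks 2-fold. All 7 Gfi1b points and 14 of the 16 bright Gfi1 points lie above the band.

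The differences of the genes overlapped probeset by probeset. The gap between the gene differences was 0.87, Gfi1 being the larger. Of the 16 bright Gfi1 probesets, 7 lay above the highest Gfi1b difference, 4 inside the Gfi1b range and 5 below it. The spread within a gene was unlike too. The Gfi1 SD of 1.09 was above that of 93.5% of measured genes and the Gfi1b SD of 0.40 above that of 21.7%. Among the 54 higher genes past the size rule with 12 to 20 bright probesets, Gfi1 included, the median SD was 0.79, and 49 had a smaller SD than Gfi1. Among the 100 such genes with 5 to 9 bright probesets, Gfi1b included, the median SD was 0.85, and 8 had a smaller SD than Gfi1b. These sets are not matched to the members for level. Leaving out 1 probeset at a time kept the Gfi1 difference between 2.41 and 2.45 and that of Gfi1b between 1.55 and 1.65. In RefSeq a long noncoding gene of the opposite strand, Gm52548, overlaps Gfi1b, and whether any Gfi1b probeset also reads it was not tested.

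The genes next to Gfi1 and Gfi1b on the chromosome showed smaller differences. Of the 20 neighbours, taken as the nearest 5 measured genes on each side in RefSeq order, 1 passed the size rule, downward (0.563% of all measured genes did), and none passed it upward (1.72% of all). The 10 neighbours of Gfi1 ran from -0.65 to 0.98 with a median of 0.18. The nearest on one side, Evi5, a regulator of Rab GTPases, had levels of 5.88 and 6.65 and a difference of 0.98 with 20 of 23 probesets higher, just under the size rule. It passed the rule when the arrays were centred on their medians (1.01) and with even-ranked probesets alone (1.08). The nearest on the other side, Rpap2, an RNA polymerase II phosphatase, differed by 0.40, followed by the ubiquitin ligase regulator gene Glmn (0.58), Btbd8 (-0.11), the epoxide hydrolase gene Ephx4 (0.26) and the testis bromodomain gene Brdt (-0.16). Beyond Evi5 came Dipk1a (-0.65), the polycomb subunit gene Mtf2 (0.09), the secretory pathway gene Tmed5 (0.48) and Ccdc18 (-0.25).

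The 10 neighbours of Gfi1b ran from -1.28 to 0.71 with a median of 0.05. Next to it lie Gtf3c5, a subunit of the RNA polymerase III factor TFIIIC, at -0.08, and the mTOR pathway inhibitor gene Tsc1 at -0.63 with 27 of 29 probesets lower. Cel, a lipase gene of the pancreas, was at 0.34, Ralgds, an exchange factor for Ral, at 0.71 and the mitochondrial ribosome gene Mrps2 at 0.14. On the side of Tsc1, Spaca9 was at -0.10, the adenylate kinase gene Ak8 at 0.31, the TFIIIC subunit gene Gtf3c4 at -0.04 and the helicase gene Ddx31 at 0.25. Gbgt1, a glycosyltransferase gene, was the neighbour past the size rule, at -1.28 over 4 probesets (SD 1.52). Its inhibitor level of 2.60 was below the median of the table, and with values below that median raised to it the difference was -0.31.

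**Figure D3:**
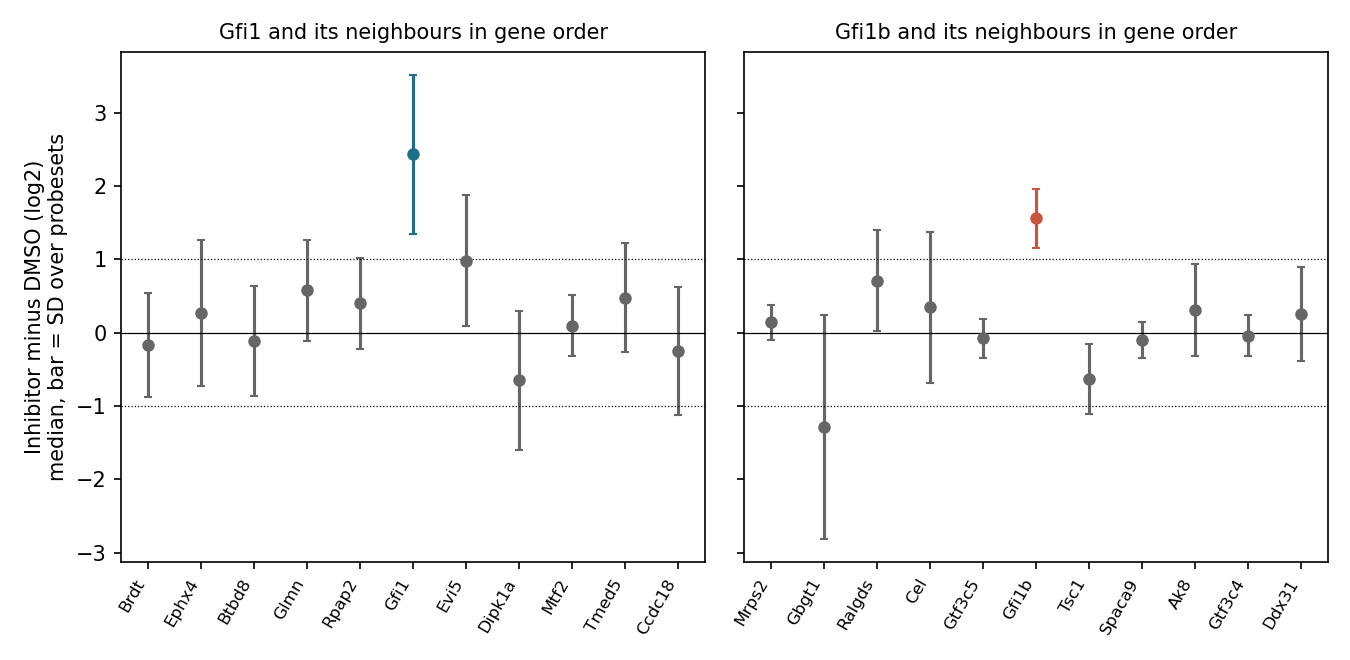
Gene difference (inhibitor minus DMSO, log2) of Gfi1 and Gfi1b and of the nearest 5 measured genes on each side in RefSeq order. Points are medians over bright probesets, bars are the SD over those probesets, and dotted lines mark 2-fold either way. Gfi1 (2.43) and Gfi1b (1.56) lie above all of their neighbours, of which Evi5 (0.98) is the highest.

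Of the genes of other proteins with a SNAG or SNAG-like domain, 9 were measured and none passed the size rule, a count near the share of all measured genes (1.72% higher, 0.563% lower). Their median was -0.0009, against 0.06 for all measured genes. The median of this list turned sign under 7 of 11 alternatives. The widest difference was that of Snai1, a repressor of epithelial genes that also binds LSD1, with levels of 4.81 and 5.87, a difference of 0.93 and 5 of 5 probesets higher. Ovol1 was at -0.40 and turned to 0.17 with odd-ranked probesets alone. Ovol2 was at 0.32. Snai3 had too few bright probesets to be measured.

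Of 21 measured corepressor partners of Gfi1 and Gfi1b none passed the size rule, which is near the share of all measured genes (1.72% higher, 0.563% lower). Of the 21, 11 were above 0 and 10 below, and the median was 0.07, against 0.06 for all measured genes. Kdm1a itself was at 0.14, with 17 of 22 probesets higher, which bears on its RNA and not on the inhibited protein. The widest 3 differences were those of Rcor2, a CoREST scaffold, at 0.47 with 12 of 13 probesets higher, Phf21a, a reader of unmethylated histone H3 in the LSD1 complex, at 0.43, and Cbfa2t3, an ETO family corepressor that binds Gfi1b, at -0.42 with 16 of 16 probesets lower.

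Factors known to act on the Gfi1 or Gfi1b genes differed in both directions. Of 21 measured upstream regulators 2 passed the size rule, both higher (1.72% of all measured genes were), and the median was 0.11, against 0.06 for all. Gata2, a regulator of blood stem cells, had levels of 6.68 and 7.98 and a difference of 1.41 (SD 0.56, 7 of 7 probesets higher). Erg, an ETS factor of endothelium and blood stem cells, differed by 1.26 (SD 1.11, 11 of 12), and by 0.88 with even-ranked probesets alone, where it missed the rule. Lmo2, the bridging protein of the Tal1 complex, had levels of 9.05 and 8.27 and was the widest downward, at -0.78 with 6 of 6 probesets lower. Gata1, Ikzf1 and Tal1, named here after their values were seen, were at -0.73, -0.76 and -0.46 without passing the rule. Ikzf1 passed it at -1.43 with even-ranked probesets alone, and 9 of 9 probesets were lower for both Gata1 and Tal1. Fli1, an ETS factor chosen the same way, was at 0.51 with 9 of 9 probesets higher. Runx1, which acts upstream of both members in hemogenic endothelium, was at 0.11 and turned to -0.07 as a mean over probesets.

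Genes reported elsewhere as bound or repressed by Gfi1 or Gfi1b included some of the widest differences. Of 32 genes on this list 21 were measured, 5 passed the size rule and all of these were higher (1.72% of all measured genes were), while the list median was 0.16, against 0.06 for all. This list and the others were chosen with earlier results of these data known, so the counts are not independent of them. Whether binding or repression by Gfi1 or Gfi1b bears on these differences was not tested. With even-ranked probesets alone, which left 11 members, the median was 0.013. The Id genes encode inhibitors of basic helix-loop-helix factors. Id3 had levels of 6.02 and 9.26 and differed by 3.24 (4 of 4 probesets higher), Id2 by 1.81 (levels 4.81 and 6.84, 4 of 4) and Id1 by 1.21 (levels 6.23 and 7.71, 3 of 4). Ets1, an ETS factor that endothelium uses and also a member of the endothelial list below, differed by 1.47 with levels of 6.66 and 8.23. Gata2, counted among the upstream regulators too, differed by 1.41. The remaining 16 ran between -0.38 for the macrophage growth factor gene Csf1 and 0.74 for the interleukin 7 receptor gene Il7r. Gon4l, Elane and Bax, from the partner and target lists, were not analysed here.

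**Figure D4:**
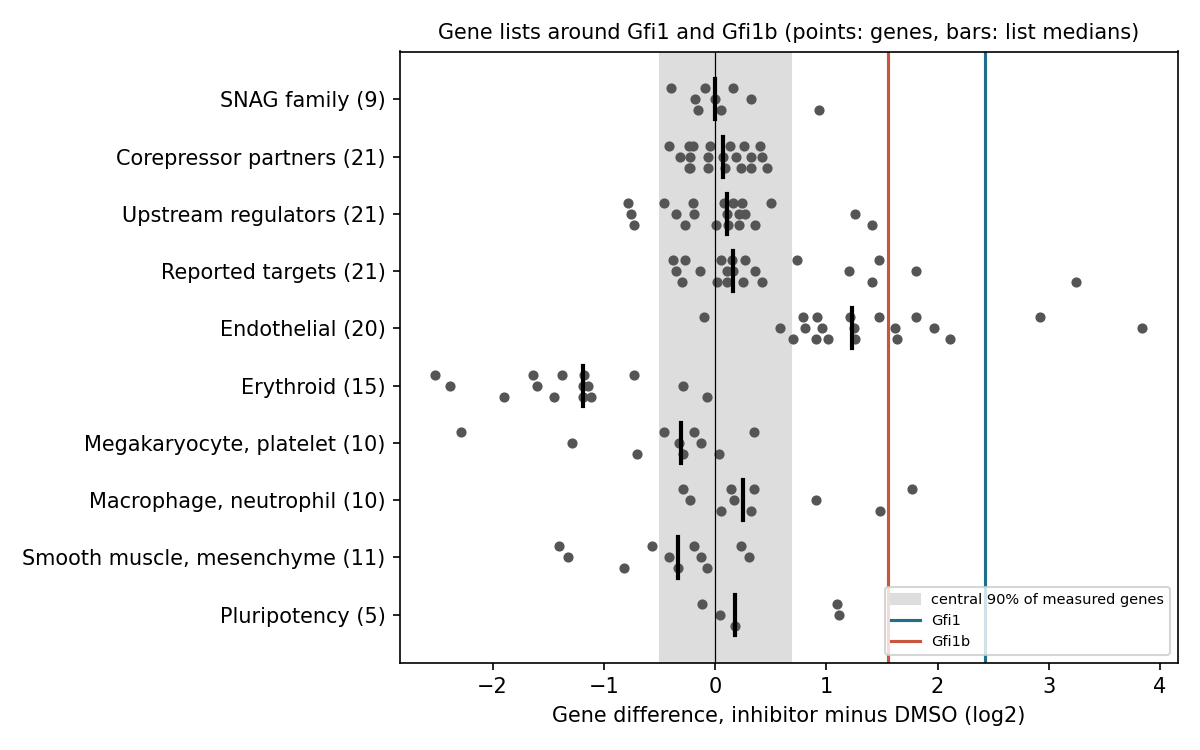
Gene differences (inhibitor minus DMSO, log2) of the measured members of 10 gene lists, with the number measured in brackets. Points are genes, black bars are list medians, coloured lines mark Gfi1 (2.43) and Gfi1b (1.56), and the grey band is the central 90% of measured genes, from -0.50 to 0.68. The SNAG and corepressor lists centre near 0, the endothelial list lies mostly above 0 and the erythroid list below it.

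Markers of cell types that a CD41 sort could hold differed between the arrays together with Gfi1 and Gfi1b. Of 20 measured endothelial markers 11 were higher (1.72% of all measured genes were) and none lower, with a median of 1.23, and the sum of their levels, turned back from log2, was 1348 in control cells and 4342 with the inhibitor. Sox7 (3.84), Ramp2 (2.92) and Cdh5 (2.11) led them. Ets1 and Erg, already counted on lists above, are among the 11, and the cell type lists too were chosen with earlier results known. Of 15 measured erythroid markers 12 were lower (0.563% of all measured genes were) and none higher, with a median of -1.19 and sums of 12385 and 4126. Trim10 (-2.51), the adult beta globin gene Hbb-b1 (-2.39, uncertain because of near-identical paralogs) and Hbb-y (-1.89) led these. Sums of this kind follow the brightest members, here globin genes such as Hba-x, with levels of 12.46 and 10.22. In bulk RNA, fewer cells of a type and less RNA per cell cannot be told apart, and the part of cell composition in the Gfi1 and Gfi1b differences was not tested.

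The other lists held fewer markers past the size rule, which 1.72% of all measured genes passed upward and 0.563% downward. Of 10 megakaryocyte and platelet markers 2 were lower, with a median of -0.31 and sums of 963 and 595, the widest being Pf4 (-2.29), Thbs1 (-1.28) and Gp1bb (-0.70). Of 10 macrophage and neutrophil markers 2 were higher, with a median of 0.25 and sums of 327 and 394, led by Lyz2 (1.77), Mrc1 (1.49) and Ctsg (0.91). Of the 10, 8 were above 0 and 2 below, Prtn3 (-0.29) and Itgam (-0.22). Mrc1 had a control level of 3.19, near the median of the table. With values below that median raised to it, Mrc1 was at 1.02 and Ctsg at 0.49. Of 11 smooth muscle and mesenchyme markers 2 were lower, with a median of -0.33 and sums of 3041 and 2241, led by Dcn (-1.40), Postn (-1.32) and Pdgfrb (-0.82). Acta2, which did not pass the rule, weighs most in these sums, with levels of 11.06 and 10.46. Dcn had levels of 3.85 and 2.89, the latter below the median of the table. Of 5 measured pluripotency markers 2 were higher, with a median of 0.18 and sums of 202 and 358, led by Lin28a (1.12), Dppa4 (1.10) and Pou5f1 (0.18). Lin28a, with levels of 6.69 and 7.79, weighs most in these sums. The deposited values come without a detection call, so no marker can be called present or absent from its value alone. Among the markers counted here, Trim10, Pf4, Klf1, Erg and Sox18 missed the size rule in 1 alternative each, Car2, Slc4a1 and Dcn in 2 and Dppa4 in 3. Trim10 was at -0.53 with even-ranked probesets alone and Pf4 at -0.77 with values below the median of the table raised to it.

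With 2 arrays the only likeness between genes is the size of the gene difference. Around Gfi1 (2.43) the next larger were Lpl (2.45), Rgl1 (2.51) and Parp8 (2.55), and the next smaller Tfec, a MiT family transcription factor (2.41), Il2rg, the common gamma chain of interleukin receptors (2.39), and Mamdc2 (2.35). Tfec and Il2rg were higher on 8 of 8 and 10 of 10 probesets. Around Gfi1b (1.56) the next larger were Chst7 (1.57), Casp8 (1.60) and Arhgef15, a guanine nucleotide exchange factor of endothelium (1.61), and the next smaller Cdc42ep1, Sall1 and the protein C receptor gene Procr, all at 1.55. Chst7, Sall1 and Procr missed the size rule in 1 alternative each, Chst7 on direction with dim probesets kept (1.16) and the other pair at 0.91 with odd-ranked and 0.98 with even-ranked probesets alone.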

How the data were processed

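The deposited values of the authors, 1 for each probeset on each array, were taken as log2 intensity because they run from 0.157 to 13.5. How they were summarised, normalised and logged is not given in the sources used here. Compared rank by rank, the arrays are never more than 0.085 apart. With its header the table has 1048576 lines, a spreadsheet row limit, so probesets beyond it were not analysed here. It holds no detection call.

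Gene symbols came from the platform annotation; 4167 of 22133 symbols were updated through RefSeq (GRCm38.p6) synonyms. Values were used without rescaling in Python 3.11.15 with pandas 2.3.3, numpy 2.4.6 and statsmodels 0.14.6. The summary was tested on simulated data. The members and lists were chosen with earlier results of these data known. Named genes were both members, members of the SNAG, partner, regulator and target lists past the size rule, the widest 3 of each list, the nearest 5 neighbours on each side and the nearest 3 differences either way. Motifs were chosen after the promoters were seen. With 1 array per group the number of arrays limits the precision. Alternatives covered the brightness filter, the summary, scaling, a floor, probesets with several genes, probeset subsets and the fold threshold.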

Additional observations from a re-analysis of the deposited data

How the results depend on the processing

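No paired analysis was possible because each group has 1 array. The Gfi1 difference stayed between 2.37 and 2.69 over 11 alternatives, and the gap between Gfi1 and Gfi1b between 0.65 and 0.91. Gfi1b stayed between 1.48 and 1.99 over 11. Its even-ranked probesets are 3, too few for the planned setting, and with 3 allowed, a choice made after seeing the data, they gave 1.99. Probesets at least 2-fold higher were 8 for Gfi1 and 4 for Gfi1b with odd-ranked probesets alone, 6 and 3 with even-ranked ones, because fewer enter, and 3 for Gfi1b at 3-fold. Genes past the size rule upward were 163 with both values at or above the median of the table, 882 at 1.5-fold and 70 at 3-fold, against 259. The SNAG family median of -0.0009 turned to 0.0044 with dim probesets kept, 0.036 at the 75th percentile, 0.068 as a mean, 0.026 centred, 0.042 after quantile normalization, 0.049 with the trend removed and 0.49 with odd-ranked probesets, which left 3 members, and was -0.38 with even-ranked ones, which left 2. With even-ranked probesets the corepressor median turned to -0.013 and that of the reported targets was 0.013. The cause of these shifts in list medians was not tested. Without a detection call, dim values such as the 2.18 of the Gfi1 probeset 4510138, and values near the median of the table, cannot be told from background.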

Other observations

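With the cutoff at its own 7 bright probesets, Gfi1b was 1 of 11 genes with at least 7 that all passed 2-fold upward with the inhibitor. The other 10, named here after their values were seen, were the lymphocyte GTPase gene Gimap4 (3.22), Tfec (2.41), Il2rg (2.39), the leukotriene C4 synthase gene Ltc4s (2.25), the DNA sensor gene Aim2 (1.94), the Wnt inhibitor gene Apcdd1 (1.89), Septin10 (1.86), the RNA-binding protein gene Rbpms (1.46), Catsperz (1.37) and the endothelin gene Edn1 (1.24). Apart from Gfi1b, the control level was highest for Rbpms, at 8.27, with 9.55 in the inhibitor array and 11 of 11 probesets higher. The lowest of the 7 Gfi1b differences was 1.42, and the lowest probeset difference of Edn1 was 1.02. Gimap4 had a control level of 3.01, below the median of the table.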
